A study of Homo sapiens with 24 samples.

Results

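The replication-dependent histone genes are the genes whose mRNA supplies new histones while DNA is copied. They were taken by symbol, as H1-1 to H1-5 and as every H2AC, H2BC, H3C or H4C name followed directly by a number, and 62 of the 14585 genes measured met that rule. The 62 genes comprised 5 H1, 16 H2A, 17 H2B, 12 H3 and 12 H4 genes. A further 7 symbols that match the rule (H2AC1, H2BC1, H2BC12L, H3C8, H4C6, H4C7 and H4C11) were not analysed here. RNA was sequenced from A549, a human lung adenocarcinoma line, and from Huh7, a human hepatocellular carcinoma line, both labelled as wild type in genotype. Cells of each line were a control or received a Pulsatilla chinensis (P. chinensis), Bupleurum chinense (B. chinense) or Polyporus umbellatus (P. umbellatus) extract, prepared from the herb with ethanol and dissolved in DMSO, with 3 libraries per group and 24 in all. The dose and time of the sequenced cells, and whether controls received DMSO, are not given in the sources used here, and neither is whether replicates were separate cultures, so p-values measure the spread between these libraries, which may be technical. Each line is a single cell line, and A549 carries wild-type p53 while Huh7 carries mutant p53.

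Histones H2A, H2B, H3 and H4 form the core around which DNA is wrapped, and H1, the linker histone, binds where the DNA enters and leaves it. The replication-dependent genes are transcribed mainly in S phase, when new chromatin has to be assembled, and lie in clusters served by the factor NPAT. Their mRNA as a rule ends in a stem-loop instead of a poly(A) tail. The stem-loop is bound by SLBP (stem-loop binding protein), which takes part in processing, translation and decay of the mRNA. Ribosomal RNA was removed here without selecting poly(A) tails, so histone mRNA of the stem-loop form could enter the libraries.

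The stem-loop is the feature that unites these genes, so its sequence was read from the genome (GRCh38) for every member. All 62 members carried a 16-base stem-loop within 150 bases after the stop codon. The examples below show the commonest forms and those of the H4 genes, 5′ to 3′ on the coding strand, with 5 flanking bases on each side in lower case and the stem-loop in capitals. H1-3 (chr6:26234212-26234237, minus strand) has the commonest form, H2BC12 a change in the loop, and H4C1, H4C12 and H4C13 the forms of the H4 genes.
H1-3: taaacGGCTCTTTTCAGAGCCaccca
H2BC12: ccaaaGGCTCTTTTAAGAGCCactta
H4C1: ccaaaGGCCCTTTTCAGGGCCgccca
H4C12: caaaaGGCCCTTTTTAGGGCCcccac
H4C13: tcaaaGGCCCTTCTCAGGGCCaccca
The H1-3 form was shared by 38 members and the H2BC12 form by 7. All 12 H4 genes had a stem that opens with GGCCC and closes with GGGCC, in the H4C1 form for 7 genes, the H4C12 form for 4 and the H4C13 form for 1. None of the other 50 members had that stem.

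Most members lay in a few clusters. The first 6p22 group held 28 genes (chr6:26017032-26285638), the second 6p22 group 20 (chr6:27125897-27893891), the 1q21 group 11 (chr1:149782689-149887965) and the 1q42 group 2 (chr1:228434777-228463104), and H4C16 stood alone on chromosome 12 (chr12:14767999-14771131). In 11 places an H2A and an H2B gene started back to back, with 194 to 251 bases between their start sites, so the stretch between them serves as the promoter of both. Promoter sequences from 250 bases before to 50 after the start were found for 57 members in the RefSeq table (GRCh38.p14), taking for each the entry nearest to its own start. The promoters of H2BC8, H4C9 and H1-3 are shown because these genes recur in the results, as a gene near 0 counts in A549, a gene near 0 counts in Huh7 and the gene with the lowest p for the difference between the lines. Capitals mark the TATA box (TATAAA), the CCAAT box (CCAAT) and the octamer bound by OCT1 (ATTTGCAT), searched on both strands, so that ATTGG is a CCAAT box on the other strand.
H2BC8 (chr6:26216639-26216938, minus strand): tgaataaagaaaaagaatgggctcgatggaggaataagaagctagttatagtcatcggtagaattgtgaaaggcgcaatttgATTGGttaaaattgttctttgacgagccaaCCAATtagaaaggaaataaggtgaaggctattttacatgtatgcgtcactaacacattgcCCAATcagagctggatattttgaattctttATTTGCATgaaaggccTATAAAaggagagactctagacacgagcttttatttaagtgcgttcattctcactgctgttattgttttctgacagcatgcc
H4C9 (chr6:27139032-27139331, plus strand): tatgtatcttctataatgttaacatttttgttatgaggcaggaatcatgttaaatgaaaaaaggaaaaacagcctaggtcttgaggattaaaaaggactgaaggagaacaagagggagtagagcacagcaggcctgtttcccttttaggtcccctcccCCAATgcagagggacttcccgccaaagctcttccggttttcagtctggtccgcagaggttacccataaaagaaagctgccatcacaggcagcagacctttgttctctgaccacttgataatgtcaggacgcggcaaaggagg
H1-3 (chr6:26234938-26235237, minus strand): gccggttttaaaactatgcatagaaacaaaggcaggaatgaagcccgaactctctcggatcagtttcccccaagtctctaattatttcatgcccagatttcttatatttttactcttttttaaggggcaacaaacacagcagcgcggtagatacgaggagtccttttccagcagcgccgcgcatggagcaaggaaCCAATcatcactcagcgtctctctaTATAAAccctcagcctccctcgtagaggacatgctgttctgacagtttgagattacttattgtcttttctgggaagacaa
CCAAT was present in all 47 promoters of H1, H2A, H2B and H3 genes and in 2 of 10 H4 promoters, against 34.6% of all 35116 promoters of that length. The octamer was found in 13 of 17 H2B and 10 of 15 H2A promoters, which often share the same bases, and in no H1, H3 or H4 promoter, against 1.8% of all promoters. TATAAA was found in 66.7% of member promoters and 11.5% of all promoters. These motif matches describe the letters only.

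Levels are given as CPM, which are counts scaled to a common library size after TMM normalization over all 24 libraries. Each herb was compared with control in a quasi-likelihood model of edgeR fitted to the 12 libraries of a line, on genes with a mean above 5 counts, and a gene was called at a Benjamini-Hochberg adjusted p below 0.05 over all genes. Log2 fold changes are given ± a standard error. It was derived as the size of the log2 fold change divided by the square root of the F statistic of its test. The 24 libraries summed to between 6803704 and 24345541 counts. The Huh7 control libraries (16455709 to 24345541) were deeper than those of Huh7 with P. umbellatus (7182444 to 10328734). Library pairs that include Huh7 P. umbellatus replicate 2 differed by 13.3 and 17.6 times the sampling variance (median over genes), whereas every other replicate pair differed by 2.74 to 5.36 times. All 8 hepatocyte markers were higher in every Huh7 library than in any A549 library, with a summed CPM of 13050 to 24370 in Huh7 and 25.2 to 38.7 in A549. Of 8 lung epithelium markers, 6 were measured, with a summed CPM of 6522 to 8510 in A549 and 3.24 to 8.23 in Huh7. Of these 6, 4 were higher in every A549 library than in any Huh7 library. In controls, 3 of them could be tested between the lines, with 1 higher and 1 lower in A549. NKX2-1 and SFTPC were not analysed here.

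In A549 the summed mRNA of the 62 genes was far lower with each herb, and lowest with P. chinensis. The control libraries held 8439, 8453 and 8104 CPM of histone mRNA in sum. With P. chinensis the sum was 2316, 2512 and 2341 CPM, which is 28.7% of the control mean. B. chinense left 3259, 3101 and 3857 CPM (40.9%) and P. umbellatus 3599, 3013 and 3394 CPM (40.03%). Every treated library was below every control library, and the 3 P. chinensis libraries were below all 6 libraries of the other two herbs. As a share of the counts as deposited, with no normalization, the members took 0.796% ± 0.0165 (SD, n = 3) of the control libraries and 0.236% ± 0.00830 with P. chinensis. In bulk RNA, fewer cells that carry histone mRNA and less histone mRNA per cell cannot be told apart.

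In Huh7 the sum was lower too, by less. The controls held 9235, 9633 and 9631 CPM, a little above the A549 controls. P. chinensis left 5228, 5225 and 6049 CPM (57.9% of the control mean) and B. chinense 7446, 7626 and 6850.0 CPM (76.9%). The P. umbellatus libraries were spread widely, at 4321, 4746 and 7064 CPM (56.6%), with replicate 3 near the B. chinense libraries and the other two below P. chinensis. No treated library reached the lowest Huh7 control.

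**Figure D1:**
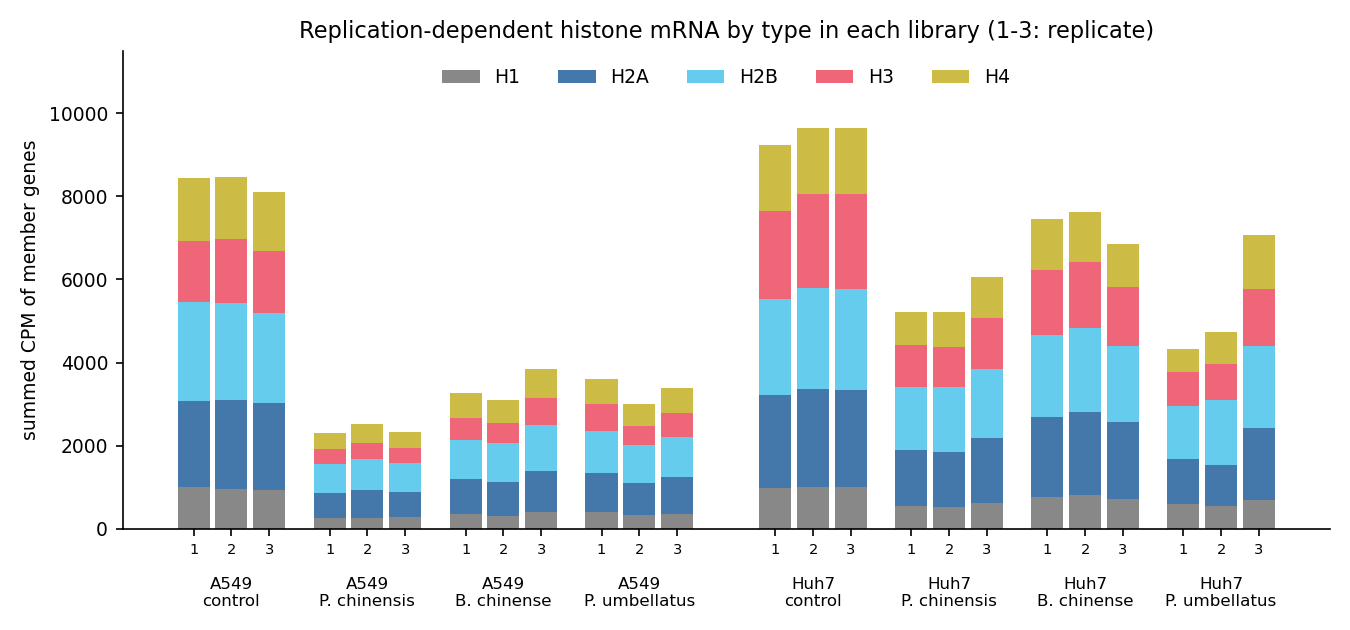
Summed CPM of the replication-dependent histone genes in each of the 24 libraries (vertical axis, from 0), stacked by histone type, with replicates 1 to 3 of each group side by side. The A549 controls stand at 8104 to 8453 CPM and the A549 P. chinensis libraries at 2316 to 2512, while Huh7 P. umbellatus replicate 3 (7064) stands above the other two libraries of its group.

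Of the 56 members tested in A549, 52 fell with P. chinensis and none rose, where 17.1% of the 13634 genes tested were lower and 15.7% higher. B. chinense lowered 52 of 56 members, against 15% of all genes (13.1% higher), and P. umbellatus 53 of 56, against 14.8% (13.4% higher). The median member changed by -1.93, -1.36 and -1.44 in that order on the log2 scale, while the medians of all genes were 0.01, -0.0018 and -0.01. All treated libraries were below all controls for 52, 54 and 53 of the 56 members in turn, against 20.6%, 18.6% and 17.3% of all genes. The 3 herb groups share the same controls, so their counts are not independent of each other. P. chinensis lowered 46 of 61 members in Huh7, where 10.5% of 13876 genes were lower and 10.4% higher. B. chinense lowered 4 (0.757% of all genes lower and 0.519% higher) and P. umbellatus 52 (17.8% and 19.3%), and no member rose. Their medians were -0.82, -0.43 and -0.82. Libraries did not overlap the controls for 57, 49 and 53 of the 61 members, against 29.3%, 16% and 25.2% of all genes. For B. chinense in Huh7 the test thus called few members although 60 of 61 log2 fold changes were below 0, where 50% of all genes were. The unadjusted p was below 0.05 for 32 members that were lower and for 0 that were higher. The share of all genes at that unadjusted threshold was not counted, so the 32 members have no background beside them. The 4 called were H2AC21, H1-5, H2BC18 and H2BC15. That count moved with the libraries in the fit. Without the P. umbellatus group in the fit 41 members were called, with DESeq2 8, and without any 1 of the control or B. chinense libraries 0. The shares of all genes given above belong to the main fit and not to these alternatives.

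**Figure D2:**
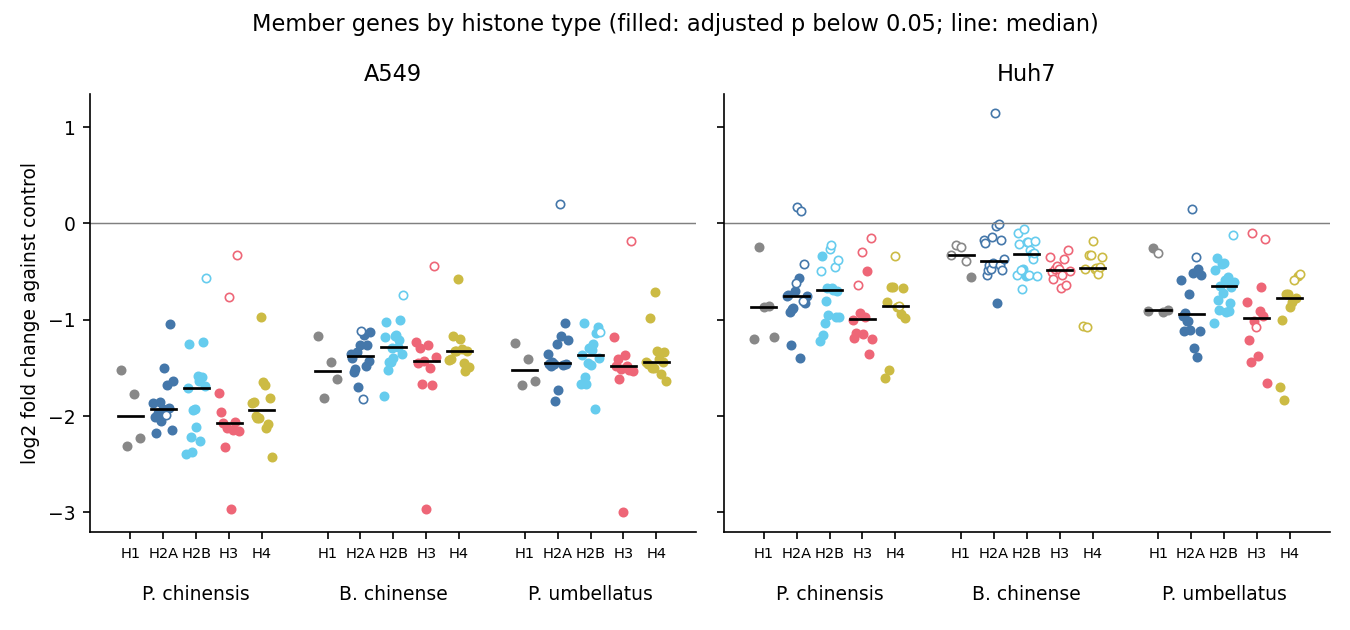
Log2 fold change against control (vertical axis) of each member tested, by histone type and herb, in A549 (left) and Huh7 (right). Filled points passed the adjusted p of 0.05 and black lines are medians of a type. The A549 medians of all members lie at -1.93, -1.36 and -1.44, and the Huh7 medians at -0.82, -0.43 and -0.82.

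The Huh7 P. umbellatus count moved when libraries were corrected for transcript length and GC content together. The members are short, with a median transcript of 487 bases against 3384 for all genes, and they make up 25.3% of the 221 genes of at most 600 bases. Among the 161 other genes of at most 600 bases tested in Huh7, 41 were lower and 4 higher with P. umbellatus (median -0.22), whereas with P. chinensis 2 were lower and 22 higher (median 0.19). In A549 with P. chinensis, 14 of 147 such genes were lower and 11 higher (median -0.04). When each library was corrected for transcript length and GC content, 18 members stayed lower and 2 became higher in Huh7 with P. umbellatus, with a member median of -0.21, and with the correction fitted without the members 21 were lower and 1 higher (median -0.26). The 2 that became higher were H2AC25 (0.67) and H2BC12 (0.31). The shares of all genes given above (17.8% lower and 19.3% higher with P. umbellatus) belong to the fit without correction. Shares under the corrections and the other fits of this paragraph are not given here. In A549 with P. chinensis the same corrections left 51 and 52 members lower, with medians of -1.65 and -1.96. Leaving out 1 library gave 41 to 56 members lower. It gave 56 without replicate 3, which had the highest histone sum (median -1.10), and 46 without replicate 2, which differed most from the others of its group (median -0.71). A fit on only the 6 libraries compared called 24. The separate parts of length and GC content in this result were not tested.

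**Figure D3:**
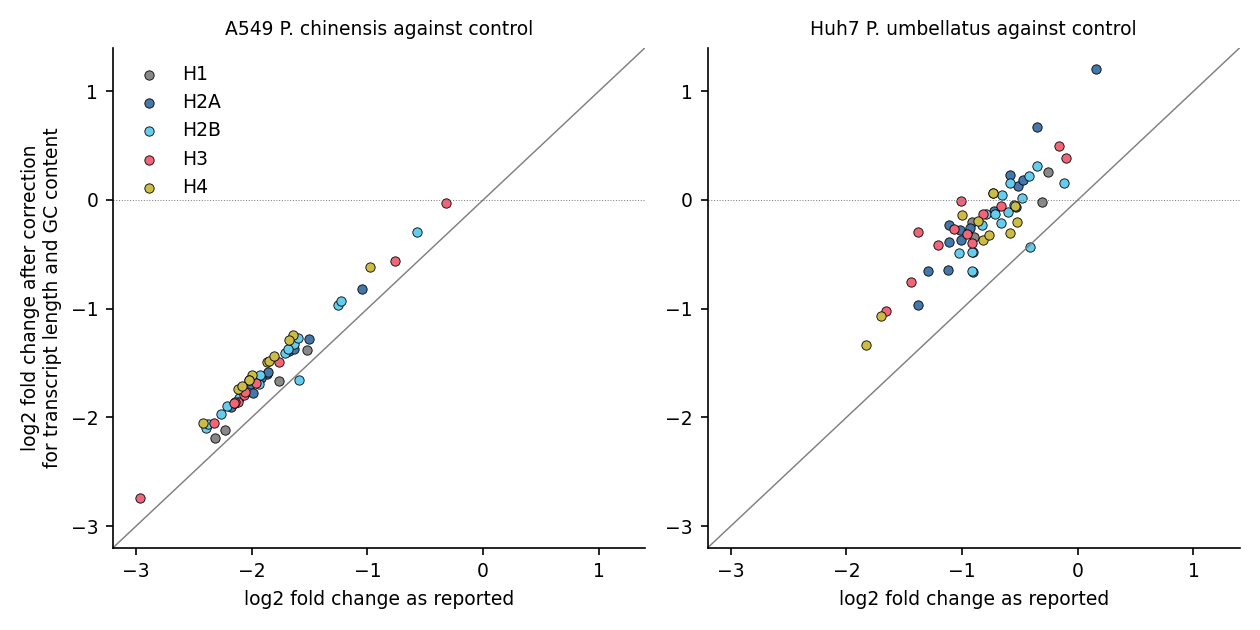
Log2 fold change of each member as reported (horizontal axis) and after correction of each library for transcript length and GC content (vertical axis), for A549 with P. chinensis (left) and Huh7 with P. umbellatus (right), with the line of equal values. The A549 points lie below 0 and, except for H2BC21, a little above the line. The Huh7 points other than H2BC21 lie further above the line, with a median over all members of -0.82 as reported and -0.21 after correction. H2BC21 lies slightly below the line in both panels (-1.59 as reported and -1.65 after correction in A549, -0.41 and -0.44 in Huh7).

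All 4 linker histone genes tested in A549 fell with each herb, and all 5 fell in Huh7 with P. chinensis. H1-3 had 294, 281 and 272 CPM in A549 controls and 55.8, 60.7 and 56.2 CPM with P. chinensis, a log2 fold change of -2.32 ± 0.07 (adjusted p = 5.51e-11). With B. chinense it had 81.8, 74.8 and 90.95 CPM (-1.81 ± 0.07) and with P. umbellatus 95.9, 85.6 and 92.7 CPM (-1.68 ± 0.07). The P. chinensis libraries were the lowest and none of the treated libraries overlapped the controls. Huh7 held far less of this mRNA, with 26.7, 30.96 and 29.4 CPM in controls, 13.7, 15.4 and 17.7 CPM with P. chinensis (-0.86 ± 0.11, adjusted p = 0.000230), 24.4, 24.03 and 24.6 CPM with B. chinense (adjusted p = 0.405) and 20.7, 24.8 and 23.3 CPM with P. umbellatus (adjusted p = 0.0521). In Huh7 the fall of H1-3 passed the test with P. chinensis, and all treated libraries of the other two herbs were below control without passing it. H1-2 was the highest H1 gene per kilobase in both lines, at 315, 297 and 293 CPM in A549 controls and 101, 99.6 and 119 CPM with P. chinensis (-1.52 ± 0.12, adjusted p = 3.47e-07). In Huh7 it went from 313, 298 and 312 CPM to 248, 229 and 285 CPM with P. chinensis (-0.25 ± 0.08, adjusted p = 0.0403), the smallest change among the Huh7 H1 genes. H1-4 fell from 284, 281 and 280.4 to 86.01, 87.2 and 79.3 CPM in A549 with P. chinensis (-1.77 ± 0.09) and from 192, 212 and 197 to 101, 111 and 114 CPM in Huh7 (-0.85 ± 0.13). H1-5 was higher in Huh7 than in A549, at 257, 276 and 280.4 CPM in controls and 118, 102 and 133 CPM with P. chinensis (-1.18 ± 0.11). Its A549 libraries went from 101, 93.5 and 91.1 to 18.6, 19.9 and 23 CPM (-2.23 ± 0.13).

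H2A and H2B pair as dimers in the core. Of the 14 H2A genes tested in A549, P. chinensis and P. umbellatus each lowered 13 and B. chinense 12, and each herb lowered 14 of 15 H2B genes. P. chinensis lowered 11 of 16 H2A and 12 of 17 H2B genes in Huh7, P. umbellatus 14 and 16, and B. chinense 1 and 2. Of all genes, 14.8% to 17.1% were lower in A549, and 10.5%, 17.8% and 0.757% in Huh7 in that order. The Huh7 P. umbellatus counts moved under the length and GC correction. H2AC4, H2AC7, H2AC12, H2AC21, H2BC3, H2BC5, H2BC10 and H2BC21 then stayed lower, H2AC25 and H2BC12 became higher, and the others did not pass. Fitted without members, the correction also left H2AC13, H2AC15 and H2BC14 lower, and H2BC12 was not called. H2AC11, among the highest H2A genes, had 289, 274 and 265 CPM in A549 controls and 69.2, 88.3 and 72.5 CPM with P. chinensis (-1.87 ± 0.08, adjusted p = 1.17e-09). Its Huh7 libraries had 189.9, 199.8 and 209.7 and 112, 110.5 and 127 CPM (-0.75 ± 0.14, adjusted p = 0.00290). H2AC20 went from 164, 177 and 166 to 53.1, 56.6 and 51.2 CPM in A549 with P. chinensis (-1.68 ± 0.08), and in Huh7 with B. chinense its 154, 159 and 158 CPM overlapped the controls at 155, 164 and 161 (-0.02). H2AC21 had the largest fall among the Huh7 H2A genes with P. chinensis, from 29.6, 31.1 and 28.1 to 9.30, 11.99 and 11.6 CPM (-1.40 ± 0.15, adjusted p = 6.21e-05). It was also among the 4 members called with B. chinense, at 15.7, 18.4 and 15.5 CPM (-0.83 ± 0.15, adjusted p = 0.0205). H2AC25, on 1q42, was among the members that changed least: in Huh7 its controls had 20.2, 20.6 and 18.5 CPM, P. chinensis 16.97, 21.1 and 25.6 CPM (adjusted p = 0.695) and B. chinense 20.1, 19.8 and 18.7 CPM (adjusted p = 0.993). In A549 the same gene fell from 17.8, 18.99 and 15.5 to 7.78, 8.42 and 9.22 CPM with P. chinensis (-1.04 ± 0.16).

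Among the H2B genes, H2BC18 was the highest per kilobase in A549 controls and H2BC12 in Huh7 controls. H2BC18 fell from 461, 433 and 396 to 96.5, 107 and 99.98 CPM in A549 with P. chinensis (-2.11 ± 0.10, adjusted p = 2.08e-09) and from 334, 349.8 and 367 to 172, 173 and 188 CPM in Huh7 (-0.95 ± 0.12, adjusted p = 0.000140). H2BC12 kept more of its mRNA, with 335, 322 and 315 CPM in A549 controls and 128, 138 and 147 with P. chinensis (-1.26 ± 0.06). In Huh7 it had 554, 587 and 544 and 439, 424 and 446 CPM (-0.34 ± 0.10). Only 18% of the 31-base words of H2BC18 and 29% of those of H2BC12 occur in no other transcript, so kallisto may have shared reads between these genes and their copies. H2BC4 went from 327, 297 and 298 to 107, 107.8 and 95.7 CPM in A549 (-1.60 ± 0.07). H2BC21 went from 238, 242 and 196 to 74.2, 76.95 and 77.1 CPM there (-1.59 ± 0.12), and in Huh7 from 230.0, 223 and 244 to 184, 168 and 218 CPM (adjusted p = 0.153). H2BC3 had the largest fall of an H2B gene in A549 with P. umbellatus, from 26.8, 27.4 and 23.1 to 7.86, 5.18 and 7.43 CPM (-1.93 ± 0.20, adjusted p = 5.07e-06). H2BC8 was the H2B gene that changed least in Huh7 with P. umbellatus, with 76.5, 77.6 and 82.7 CPM in controls and 39.1, 89.4 and 85.1 CPM with the herb (adjusted p = 0.709), where replicate 1 was low and the other two above every control.

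With P. chinensis, the sum of H3 mRNA was a smaller percent of control than that of any other type, in both lines. Summed over the 12 genes, H3 mRNA stood at 1509.6 ± 33.3 CPM (SD, n = 3) in A549 controls and 361 ± 21.8 CPM with P. chinensis (23.9% of control). In Huh7 the sums were 2219 ± 88.9 and 1076 ± 145 CPM (48.5%). H3C2, among the highest H3 genes of both lines, went from 346, 348 and 321 to 82.1, 79.9 and 71.4 CPM in A549 (-2.14 ± 0.10, adjusted p = 2.08e-09) and from 537, 588 and 584 to 261, 271 and 321 CPM in Huh7 (-0.97 ± 0.17, adjusted p = 0.00135). H3C10 fell from 189, 209 and 215 to 55.4, 54.5 and 50.2 CPM in A549 (-1.96 ± 0.10) and from 214, 234 and 224 to 91.4, 91.01 and 107 CPM in Huh7 (-1.19 ± 0.18). H3C7 had one of the largest falls with P. umbellatus in Huh7, from 149.8, 169 and 164 to 30.6, 44.2 and 73.6 CPM (-1.66 ± 0.22, adjusted p = 0.000586). It stayed well below control after the length and GC correction (-1.02).

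H3C6 was called with no herb in either line. In A549 it had 18.9, 21.7 and 17.7 CPM in controls, 12.8, 17.8 and 16.6 CPM under P. chinensis, 16.6, 13.97 and 13.1 CPM under B. chinense and 14.8, 18.9 and 20.1 CPM under P. umbellatus, with adjusted p = 0.144, 0.0557 and 0.456 in turn. The P. chinensis and P. umbellatus libraries overlapped the controls. Huh7 held 22, 19.2 and 22.3 CPM in controls and 18.9, 17.9 and 19.3 CPM with P. chinensis (adjusted p = 0.388). It is a weakly expressed H3 gene, the second lowest of the H3 genes per kilobase in A549 controls, and its annotated gene (chr6:26224199-26227473) is longer than its 482-base stem-loop transcript. Members whose annotated gene spans more than 1000 bases had a median change nearer to 0. In A549 with P. chinensis the median was -1.69 over the 17 such members and -2.0 over the other 39 tested, and in Huh7 it was -0.64 over 17 and -0.87 over 44, with 8 and 38 called lower. The 2 groups were described and their difference was not tested.

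The H4 genes fell in every A549 comparison. All 12 were called with each herb, with medians of -1.93, -1.33 and -1.44, where 17.1%, 15% and 14.8% of all genes were lower. H4C14 and H4C15 had the same counts in all 24 libraries, so they are not separate measurements among the 12. H4C12 had 204, 209.6 and 189.9 CPM in A549 controls and 45.2, 67.1 and 56.8 CPM with P. chinensis (-1.85 ± 0.18), against 389.7, 348 and 373 and 200.4, 187 and 232 CPM in Huh7 (-0.82 ± 0.24), although only 7.0% of its 31-base words are its own. H4C2 went from 176, 183 and 181 to 59.2, 59.9 and 56.7 CPM in A549 (-1.64 ± 0.07) and from 192, 197 and 181 to 92.8, 109.6 and 104 CPM in Huh7 (-0.87 ± 0.28). H4C9 fell furthest of the A549 H4 genes with P. chinensis, from 43.8, 48.4 and 47.3 to 9.47, 9.36 and 7.22 CPM (-2.42 ± 0.13, adjusted p = 7.56e-09). In Huh7 the largest H4 fall with P. chinensis was that of H4C1, with 127, 146 and 142 CPM in controls, 42.05, 43.2 and 48.4 CPM with P. chinensis (-1.60 ± 0.26, adjusted p = 0.000950), 66.4, 68.2 and 62.6 CPM with B. chinense (adjusted p = 0.0716) and 21.2, 36.9 and 65.8 CPM with P. umbellatus (-1.70 ± 0.27, adjusted p = 0.00126). The B. chinense libraries of H4C1 were all below control, and the call missed the threshold. H4C16, the member outside the clusters, changed least among the H4 genes of A549, from 84.1, 88.7 and 81.97 to 58.3, 52.03 and 64.8 CPM with B. chinense (-0.58 ± 0.08, adjusted p = 0.000117) and to 42.8, 43.98 and 44.7 CPM with P. chinensis (-0.98 ± 0.08).

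The make-up of histone mRNA differed between control and treated libraries. H3 took 18.1% ± 0.472 (SD, n = 3) of the summed member CPM in A549 controls and 15.1% ± 0.259 with P. chinensis, and 23.3% ± 0.398 and 19.5% ± 0.916 in Huh7. H2B went the other way, from 27.4% ± 0.677 to 29.97% ± 0.890 in A549 and from 25.2% ± 0.154 to 28.6% ± 1.27 in Huh7. Shares of H3 in the treated libraries did not overlap the controls for any herb in Huh7. In A549 they did not overlap for P. chinensis and B. chinense, but did for P. umbellatus (15.7% to 17.7% against 17.6% to 18.5%). The share of H4 in A549 controls (17.4% to 17.9%) overlapped that with each herb. These shares are sums over genes chosen with the rule and were not tested.

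**Figure D4:**
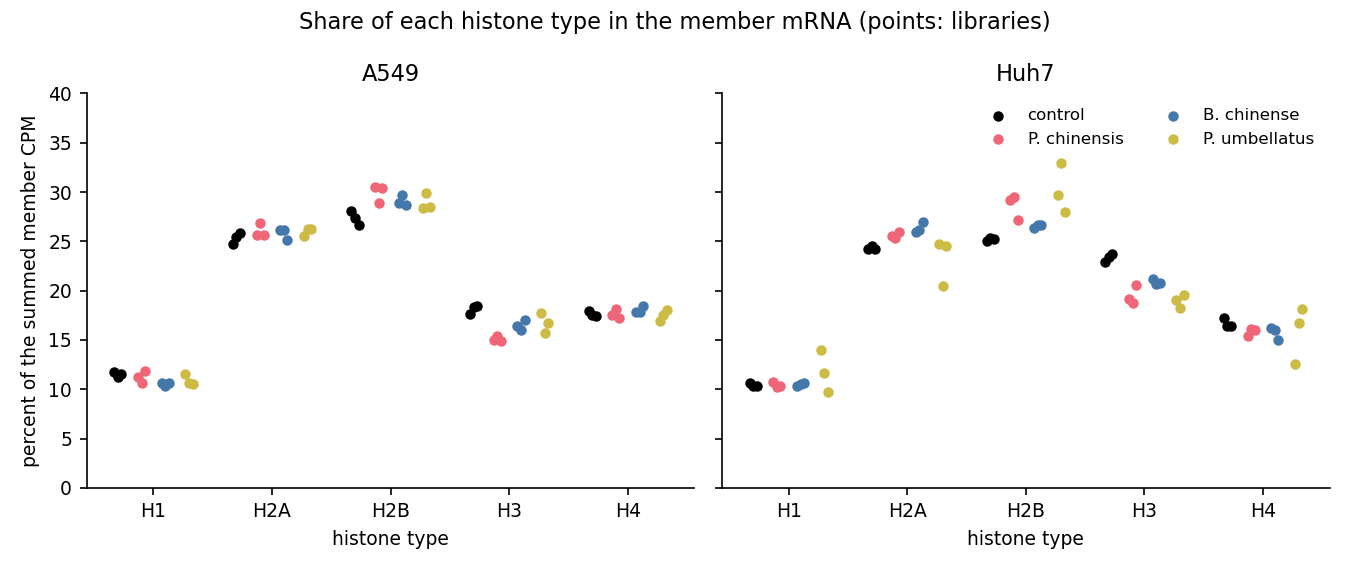
Share of each histone type in the summed CPM of the members (vertical axis, percent), for every library of A549 (left) and Huh7 (right), coloured by group. H3 is lower with P. chinensis than in control in both lines (15.1% against 18.1% in A549, 19.5% against 23.3% in Huh7), and H2B is higher.

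P. chinensis was also set against the average of B. chinense and P. umbellatus, which asks whether it acted more strongly on these genes. In A549, 39 of 56 members were lower with P. chinensis and 1 was higher, where 2.42% of all genes were lower and 1.15% higher, and the median member differed by -0.50. The count was lower without A549 P. chinensis replicate 3 (18 members lower) or replicate 1 (23). The member that was higher was H3C14, whose reads cannot be separated from those of H3C15. In Huh7, 10 of 61 members were lower and 0 higher, against 12.1% and 9.69% of all genes, with a median of -0.22. The 10 of 61 lower thus lie near the share over all genes. That Huh7 count included H1-1, H1-3, H1-5, H3C4, H2AC14 and 5 H2B genes (H2BC6, H2BC9, H2BC13, H2BC17 and H2BC18). It moved to 48 members after correction for transcript length and GC content and to 22 without P. umbellatus replicate 1. Without P. umbellatus replicate 3 it was 11 lower and 5 higher. Shares of all genes under these alternatives are not given here.

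The responses of A549 and Huh7 were compared in a model of all 24 libraries, on 55 members tested in both lines. A lower response means a more negative log2 fold change in A549 than in Huh7, which is a larger fall for a gene that fell in both. The P. chinensis response was lower in A549 for 43 members and higher for 0, where 9.3% of 12925 genes were lower and 10.3% higher. For B. chinense 33 members were lower and 0 higher (5.79% and 5.8% of all genes) and for P. umbellatus 20 were lower and 1 was higher (15.3% and 19.1% of all genes). The median differences were -1.08, -0.93 and -0.56 on the log2 scale. H1-3 had the lowest p of all members for each herb, with differences of -1.40 ± 0.13 (adjusted p = 7.09e-08), -1.52 ± 0.13 (adjusted p = 1.15e-07) and -1.29 ± 0.13 (adjusted p = 3.83e-07) in the same order. All 4 H1 genes tested (H1-2, H1-3, H1-4 and H1-5) had a lower P. chinensis response in A549, that is a larger fall. The same 4 had a lower B. chinense response there. By type, the P. chinensis difference was called for 11 of 14 H2A, 14 of 15 H2B, 9 of 11 H3 and 5 of 11 H4 genes. With P. umbellatus, the count of lower members was 39 and 45 under the length and GC corrections, and it was 14, with 4 higher, without Huh7 P. umbellatus replicate 3 and 30 without replicate 1. H4C13 was the member called higher with P. umbellatus (0.89 ± 0.32, adjusted p = 0.0343), and no member was called higher with DESeq2, with a mean of at least 50 counts or under either correction. Its Huh7 libraries had 3.57, 2.81 and 2.37 CPM in controls and 0.727, 0.718 and 0.688 CPM with the herb, and its A549 libraries 18.4, 19.5 and 18.3 and 10.1, 8.11 and 11.2 CPM, so the gene fell in both lines, and its fall in Huh7 rested on 5 to 7 counts per Huh7 library with the herb.

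A549 and Huh7 controls held similar sums of histone mRNA, from partly different genes. The summed level was 8332 ± 198 CPM in A549 and 9499.6 ± 229 CPM in Huh7 (SD, n = 3). Of 55 members tested, 17 were higher in A549 and 11 higher in Huh7, with a median difference of 0.05, where 33.7% of all genes were higher in A549 and 34.9% lower. The difference was below 0 for 25 of 55 members and 51% of all genes. The differences that passed the test ranged from 6.17 for H3C12 to -4.86 for H2BC7. H1-1, H2AC7, H2AC8, H2BC8, H2BC9 and H3C4 had too few counts in A549 to enter this test, and H4C9 too few in Huh7. These counts, the median and the range therefore leave them out. Levels per kilobase of transcript were compared without the near-identical genes, whose reads cannot be split. In A549 controls H2BC18 was the highest of the others, at 806 to 937 CPM per kb. H2BC4 (645 to 710.5), H3C2 (628 to 680) and H2BC12 (636 to 676) followed and overlapped, so these neighbours do not differ in rank beyond their spread. In Huh7 controls H2BC12 (1098 to 1185 CPM per kb) and H3C2 (1050.4 to 1151) were the highest and overlapped, ahead of H4C12 (899.6 to 1007). Only 18% of the 31-base words of H2BC18, 29% of those of H2BC12 and 7.0% of those of H4C12 are their own. Their places thus also depend on how reads were split.

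Some members were near 0 counts in 1 line. In A549 controls H1-1 had 0, 0 and 1 counts, H2AC8 0, 0 and 2 counts and H2BC8 2, 0 and 0 counts. The Huh7 controls held 3707, 2866 and 4211 counts of H1-1, 2811, 2551 and 4127 of H2AC8 and 1498, 1241 and 1953 of H2BC8. H2AC7 (2, 2 and 0), H2BC9 (0, 0 and 1) and H3C4 (4, 4 and 1) were as low in A549 controls, although 96.6% of the 31-base words of H3C4 and 84.6% of those of H2AC7 also occur in another annotated gene, so their counts depend on how reads were split. H2BC7 was measured there at 12, 24 and 8 counts. No fold is given for the genes at or near the limit of 3 counts. All of these genes lie in the first 6p22 group, among neighbours that A549 expresses: H4C5 (chr6:26204610-26205021), between H2BC7 (chr6:26199516-26199988) and H2BC8 (chr6:26216200-26216688), had 81.3, 74.9 and 64.4 CPM in A549 controls. The back-to-back pairs H2AC7 with H2BC7 and H2BC8 with H2AC8 were low in A549 as pairs, and the promoter between H2BC8 and H2AC8 printed above holds all 3 motifs searched.

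The reverse pattern was seen for some genes of the second 6p22 group. Of the 19 members of that group tested in both lines, 9 were higher and 5 lower in A549 controls, against 33.7% and 34.9% of all genes. H4C9 had 340, 484 and 482 counts in A549 controls and 0, 2 and 4 in Huh7 controls, which is at the limit of detection. H3C12 had 1212, 1568 and 1595 counts in A549 and 49, 32 and 37 in Huh7 controls, and H4C13 was higher in A549 by 2.62 ± 0.23 on the log2 scale. H1-3, in the first group, was higher in A549 by 3.28 ± 0.09 (adjusted p = 2.28e-18). H1-5, in the second group, differed by -1.51 ± 0.12 (lower in A549). Across control and herbs, H4C9 stood at 0 to 11 counts in every Huh7 library and H1-1 at 0 to 6 counts in every A549 library.

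**Figure D5:**
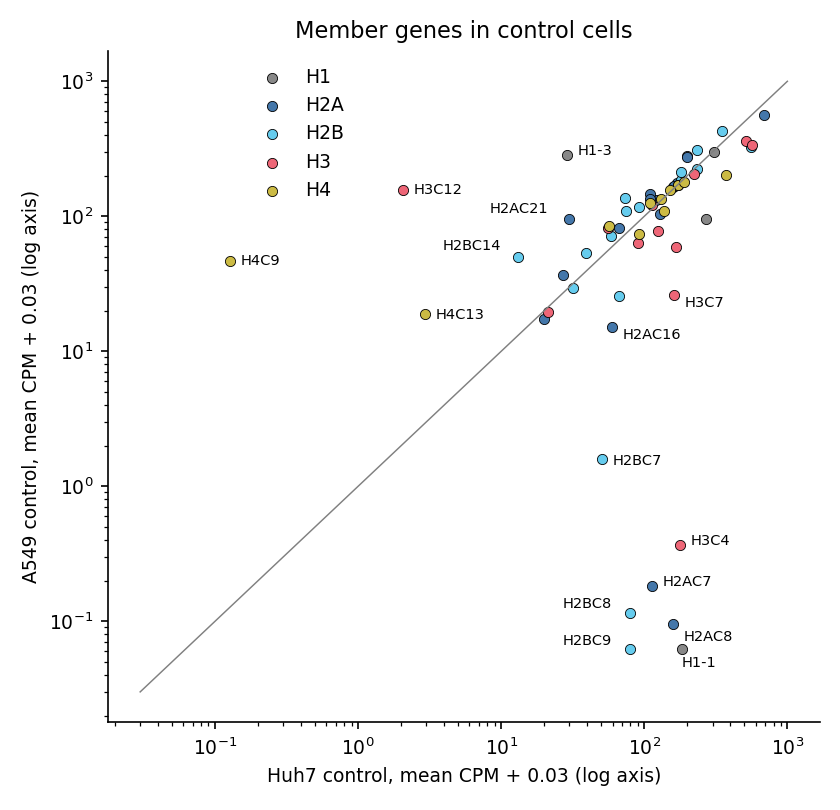
Mean CPM of each member in the 3 control libraries of Huh7 (horizontal axis) and of A549 (vertical axis), both on log axes with 0.03 added, coloured by histone type, with the line of equal levels. Most members lie along the line, H1-1, H2AC7, H2AC8, H2BC7, H2BC8, H2BC9 and H3C4 lie far below it, and H4C9, H3C12, H1-3 and H4C13 far above it.

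The genes of a back-to-back pair had similar changes in some pairs and not in others. In A549 with P. chinensis, H2BC4 and H2AC6 changed by -1.60 and -1.64, H2AC17 and H2BC17 by -1.93 and -1.93, and H2BC13 and H2AC13 by -2.21 and -2.18. H2BC12 changed by -1.26 and its partner H2AC12 by -2.01. On 1q42, H2AC25 changed by -1.04 and H2BC26 by -1.63. Differences within pairs were not tested.

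In 3 pairs of members the transcripts are nearly the same, and the split of reads between them is uncertain. H4C14 and H4C15 share every 31-base word and had the same count in all 24 libraries, with 174, 169 and 166 CPM each in A549 controls and 41.2, 48.6 and 37.5 CPM with P. chinensis. H2AC18 and H2AC19 also share nearly all words, and their split varied from library to library. In A549 with P. umbellatus, H2AC18 had 249, 250.2 and 18.5 CPM and H2AC19 31.7, 8.80 and 263 CPM, so that replicate 3 had most of its reads at H2AC19 and the others at H2AC18. H3C15 had 68.6, 69.4 and 5.51 CPM with P. chinensis and H3C14 22.6, 36.9 and 87.2 CPM in the same libraries, with the same kind of exchange in replicate 3. Their own fold changes, which lie at the ends of the range in the plot of changes by type, should not be read per gene. Summed, H2AC18 and H2AC19 changed in A549 by -1.56 ± 0.06 under P. chinensis, -1.19 ± 0.06 under B. chinense and -1.28 ± 0.06 under P. umbellatus, all called. H3C14 and H3C15 changed by -2.22 ± 0.15, -1.46 ± 0.15 and -1.56 ± 0.14, and H4C14 and H4C15 by -2.02 ± 0.12, -1.32 ± 0.12 and -1.50 ± 0.12. In Huh7 with P. chinensis the sums changed by -0.55 (adjusted p = 0.0720), -1.06 (adjusted p = 0.00629) and -0.68 (adjusted p = 0.0266) in the same order. Without these 6 genes the remaining 56 members summed to 28.8% of control in A549 with P. chinensis and 57.5% in Huh7, close to the values with them.

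The genes that supply and deposit histones were counted as lists beside the members. In A549, 17.1% of all genes were lower with P. chinensis, 15% under B. chinense and 14.8% under P. umbellatus. The shares in Huh7 were 10.5%, 0.757% and 17.8% in that order. Of 24 DNA replication genes, 23 fell in A549 with each herb, with medians of -1.28, -0.98 and -0.89 in that order, and MCM4, MCM5, MCM7 and MCM3, subunits of the replicative helicase, changed by -1.31, -1.62, -1.44 and -1.34 with P. chinensis. P. chinensis lowered 20 of 24 in Huh7 (median -0.52), B. chinense 1 (-0.14) and P. umbellatus 9 (-0.09). The histone gene medians in Huh7 were -0.82, -0.43 and -0.82, and the last of these was -0.21 and -0.26 under the length and GC corrections. Histone chaperones, which carry new histones to DNA, fell for 12 of 14 genes in A549 with P. chinensis (median -0.70), including CHAF1A (-1.38), a subunit of the chromatin assembly factor, HJURP (-1.35), SSRP1 (-0.76) and RBBP7 (-0.54). P. chinensis lowered 8 of 14 in Huh7 (median -0.32) and B. chinense 0. With P. umbellatus 3 fell and 1 rose there, where 17.8% of all genes were lower and 19.3% higher, so 3 of 14 lies near that share.

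Of 19 genes for transcribing and processing histone mRNA, 11 fell and 0 rose in A549 with P. chinensis (median -0.39), among them CDK2 (-1.11), SLBP (-0.61), ERI1 (-0.51), an exonuclease that trims the stem-loop end, and CPSF3 (-0.44), the nuclease that cuts histone pre-mRNA. In Huh7, 3 fell and 3 rose with P. chinensis, 0 passed the test with B. chinense, and under P. umbellatus 1 fell and 7 rose (median 0.27). Over all genes in Huh7, 10.5% were lower and 10.4% higher with P. chinensis, and 17.8% and 19.3% with P. umbellatus, so 3 and 3 of 19 lie near that background. The replication-independent histone genes, which are made outside S phase as well, fell for 8 of 11 in A549 with each herb (medians -0.47, -0.43 and -0.38). H2AZ1 changed by -0.94, H2AZ2 by -0.83, H2AX by -0.94 and CENPA, the centromere histone, by -1.62 with P. chinensis. In Huh7, 2 fell and 2 rose with P. chinensis and 4 fell with P. umbellatus.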

How the data were processed

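Stranded total RNA libraries depleted of ribosomal RNA were made from A549 and Huh7 cells. The authors pseudoaligned paired reads with kallisto to the GRCh38.p13 transcripts (Ensembl v108), kept protein-coding genes with a mean above 5, and deposited a table of estimated counts, given as integers and not normalized. FastQC and kallisto are named without a version in the submitters' processing notes. kallisto shares reads among near-identical transcripts, which histone genes have.

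Members and lists were chosen with earlier results of these data known. Symbols, positions and transcripts came from GENCODE v44 (GRCh38), and promoters from RefSeq. Counts were normalized by TMM and fitted with edgeR 4.0.16 (limma 3.58.1, R 4.3.3) by the quasi-likelihood method with a prior count of 2, per line for herbs and over all 24 libraries for differences between lines, two-sided with Benjamini-Hochberg adjustment over all genes. The method, which differs from the DESeq2 analysis that the authors ran, was checked on simulated counts. Printed CPM are on the scale of 24 libraries. Groups followed the labelled cell line and treatment. Depth ran from 6803704 to 24345541 counts per library, and precision was taken from the spread of 3 replicates.

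Named with values were, by type and line, the 3 members highest in mean CPM, by herb and line the 2 lowest and 2 highest fold changes among members with a mean of at least 50 counts, members called against the majority, and the member of lowest p in each difference between lines. From each list, the 4 genes of lowest p in A549 with P. chinensis were named. Members outside this rule (among them H1-1, H2AC7, H2AC8, H2AC12, H2BC7, H2BC9, H3C4, H3C12, H4C5 and the genes of back-to-back pairs) were named after their values were seen. Same-numbered libraries did not deviate together, so the main fits used no pairing by replicate number. Whether such libraries were made together is not stated and cannot be told from this. Alternatives were DESeq2 1.42.0, RLE and upper quartile normalization, a mean of at least 50 counts, no filter, a replicate block, length and GC correction, 6-library fits and leaving out each library. Chosen after seeing the data were the summed near-identical pairs, the correction fitted without members and the Huh7 fit without P. umbellatus.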

Additional observations from a re-analysis of the deposited data

Results flagged for a closer look

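The herb responses of the members that differed between A549 and Huh7 in a direct test are repeated here with their counts. A lower response again means a more negative log2 fold change in A549 than in Huh7. The P. chinensis response was lower in A549 for 43 of 55 members, against 9.3% of all genes. For B. chinense it was lower for 33 members, against 5.79% of all genes. For P. umbellatus it was lower for 20 members and higher for 1, against 15.3% and 19.1% of all genes. Leaving out 1 library gave 14 to 30 members lower for P. umbellatus, and the length and GC corrections gave more. The difference of H1-3 was -1.40 for P. chinensis, -1.52 for B. chinense and -1.29 for P. umbellatus on the log2 scale. H4C13 differed by 0.89 for P. umbellatus, at few counts in Huh7. Groups of 3 libraries are too small for a test of single outlying libraries.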

How the results depend on the processing

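The A549 counts against control moved little. Leaving out 1 library gave 51 to 52 members lower with P. chinensis, 51 to 53 with B. chinense and 52 to 54 with P. umbellatus. The summed histone mRNA relative to control gave 29.6% in A549 with P. chinensis by share of the deposited counts. Of the counts and sums recomputed under the alternatives that keep all libraries compared, 220 stayed close to the reported value and 24 moved by over 1.5 times, and the causes were not tested unless the alternative itself shows them.

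Huh7 with B. chinense (4 members lower) gave 8 with DESeq2, 43 in the fit on 6 libraries, 41 without the P. umbellatus group, 13 and 16 with the length and GC correction (the second fitted without members), 2 with upper quartile normalization and 0 to 15 without 1 library. Huh7 with P. umbellatus (52) gave 24 in the 6-library fit and 18 lower with 2 higher, or 21 with 1 higher, under the corrections. P. chinensis against the mean of the other two herbs gave 48 and 54 lower in Huh7 under the corrections (10 before), 4 to 22 lower and 0 to 5 higher without 1 library, and in A549 18 to 40 lower and 0 to 1 higher. The 1 member higher in A549 gave 0 with DESeq2, with the pairs summed and with the replicate block. The P. umbellatus difference between the lines gave 39 and 45 lower and 0 higher under the corrections, 0 higher with DESeq2 or a mean of at least 50 counts, and 0 to 4 higher without 1 library. Without a filter on low counts, 17 members were lower in A549 than in Huh7 controls, since silent genes then enter. The P. chinensis count in Huh7 was 31 to 53 without 1 library. Shares of all genes under these alternatives are not given here, so the counts of this paragraph have no background beside them.

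Under the corrections (fitted with and then without members) these Huh7 P. umbellatus changes turned positive: H1-2 (0.26, 0.23), H2AC11 (0.23, 0.18), H2AC20 (0.13, 0.083), H2BC12 (0.31, 0.26), H2BC8 (0.15, 0.11) and H4C14 (0.068, 0.0039). So did H2AC20 (0.10, 0.048) and H2AC25 (0.16, 0.11, and 0.012 with upper quartile normalization) with B. chinense in Huh7, and H3C6 with P. umbellatus in A549 (0.14). H2AC25 with P. chinensis in Huh7 turned to -0.021 under the second correction. Without 1 library, H2AC19 ranged from -2.02 to 2.02 with P. umbellatus in A549, from -0.28 to 0.47 with P. chinensis in Huh7 and from -0.31 to 0.63 with P. umbellatus in Huh7. In Huh7 without 1 library, H2AC25 ranged from -0.057 to 0.022 with B. chinense and from -0.024 to 0.25 with P. chinensis, and H2BC8 from -0.31 to 0.17 with P. umbellatus.

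Same-numbered libraries had correlations of deviations from the group means between -0.06 and 0.05 in A549 and between -0.03 and 0.04 in Huh7. No shared effect of the replicate number was thus detected, which cannot show whether such libraries were made together. With the replicate number as a block, 1 member was lower in Huh7 with B. chinense, 45 with P. chinensis and 53 with P. umbellatus, and H2AC19 in Huh7 with P. umbellatus turned to -0.091. Depth limits genes at or under 3 counts, for which no fold is given.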
